A study of Macaca fascicularis with 38 samples.

Results

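The 5 drinking animals of cohort 9 were cynomolgus macaques (Macaca fascicularis) that drank ethanol by choice, with 1 biopsy of prefrontal cortical area 46 taken ahead of the drinking period and 1 following it. They are the animals whose columns in the deposited table carry the header marks Drinker and Cohort 9, namely X10200, X10201, X10203, X10206 and X10207, and they give 10 of the 32 libraries. The same table holds 6 libraries of 3 control animals of cohort 9, 10 of 5 drinkers of cohort 13 and 6 of 3 controls of cohort 13, each animal with a before and an after biopsy. The labels name every sample by ethanol time point, controls included, and the marks of drinker and control come from the table header. So in control animals before and after mean the first and the second biopsy. All 16 libraries of cohort 9 share 1 RNA code in their titles. The sources used here do not give age, sex, the amounts drunk or the interval between biopsies. In the drinkers, ethanol, the passage of time and the earlier biopsy cannot be told apart.

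Area 46 is dorsolateral prefrontal association cortex, a region tied to working memory and to the control of behaviour. A cortical biopsy contains excitatory neurons that release glutamate, inhibitory neurons that release GABA, myelin-forming oligodendrocytes, astrocytes, microglia, vessel cells and whatever blood the sample carries. Ethanol acts on GABA-A and glutamate receptors among other targets. In bulk RNA, fewer cells of a type and less RNA per cell cannot be told apart.

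Levels are TPM as deposited, read counts scaled for gene length and to the same total in every library, and changes are differences of log2(TPM + 1), after minus before, which understate the change of genes at low levels. Whole reads recovered from the TPM values amounted to 14.2 to 22.8 M reads per library in the drinkers, against 18.5 to 23.4 M in the controls of cohort 9 and 18.5 to 43.5 M in the drinkers of cohort 13. All 10 libraries held the markers of grey matter. The excitatory marker SLC17A7 lay between 531 and 790 TPM, GAD1 of inhibitory neurons between 84.4 and 165, the myelin gene MBP between 330 and 2600 and the astrocyte gene GFAP between 202 and 981. Mitochondrially encoded genes took 33.6% to 45.6% of the TPM before and 32.6% to 41.3% after. A smaller mitochondrial share raises the TPM of any gene whose part in the remaining RNA stays equal.

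The second biopsy differed from the first in many genes. Of the 15324 genes whose TPM averaged 1 or more over all libraries, 2716 (17.7%) changed at a Benjamini-Hochberg adjusted p below 0.05 in limma-trend, fitted with a term for each animal. Of these, 2263 (14.8% of genes tested) were higher and 453 (2.96%) lower, so that 83.3% of the calls were rises. The split depended on the scale, since the median change over all genes was 0.21. With the median of each library set equal, 1090 genes (7.11%) rose and 1772 (11.6%) fell, and rises made up 38.1% of the calls. In the same direction on both scales were 1084 rises (7.07%) and 453 falls (2.96%), and a direction below holds on both scales unless stated. The called rises had a median log2 change of 0.68, with 171 past 1, and the called falls one of -0.72, with 114 past -1. Without a test, 5558 genes (36.3%) were higher in 5 of 5 pairs and 980 (6.4%) lower, which became 2480 (16.2%) and 3282 (21.4%) after median scaling. All 5 after libraries lay above all 5 before libraries for 1536 genes (10%) and below them for 257 (1.68%). The animals differed in how far they moved. The median change over all genes was 0.17 in X10200, 0.32 in X10201, 0.35 in X10203, 0.11 in X10206 and 0.13 in X10207. Across genes, the changes of 2 animals had a Pearson r between 0.37 for X10203 with X10207 and 0.79 for X10201 with X10206, as a description of libraries that share the scaling within each animal. The number of calls rested on single animals. Leaving out 1 drinker kept the median change over all genes between 0.18 and 0.24. Genes at an unadjusted limma-trend p below 0.05 then numbered 3480 to 5819, against 5817 with all animals. A lost call is thus not by itself a lost change. Without X10200 there were 413 rises and 102 falls, without X10201 25 and 74, without X10203 17 and 16, without X10206 720 and 263, and without X10207 2061 and 397. Falls called in all 5 of these fits were S100A9, S100A8, LOC102118223, CCL3, TNF, CCL8, CFP, SDS, SCARF2, BBC3, RRAD, LOC102143485, LOC102133897 and REC8. Rises called in all 5 were TBC1D8B, FXR1, OLAH, CLK4, PER2, BHLHE40, ANKRD34C, LOC101865285, CHORDC1, SPP1, SPRY4, CLK1 and DUSP4. These names were chosen after their values were seen. Of 95 called genes that are given a value or a name by rule below, 54 lost their call without X10200, 71 without X10201, 81 without X10203, 26 without X10206 and 7 without X10207. The composition covariates are the mean levels of neuronal, oligodendrocyte and astrocyte markers in each library. With them 1 gene, DUSP4, was still called, and 1 of the 95, NR4A2, changed sign. An unadjusted limma-trend p below 0.05 remained for 3337 genes. Estimates moved unequally. PER2 was at 0.90 and TNF at -1.97 (limma-trend adjusted p of 0.0631 and 0.0667), while SLC24A2 was at 0.013.

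**Figure D1:**
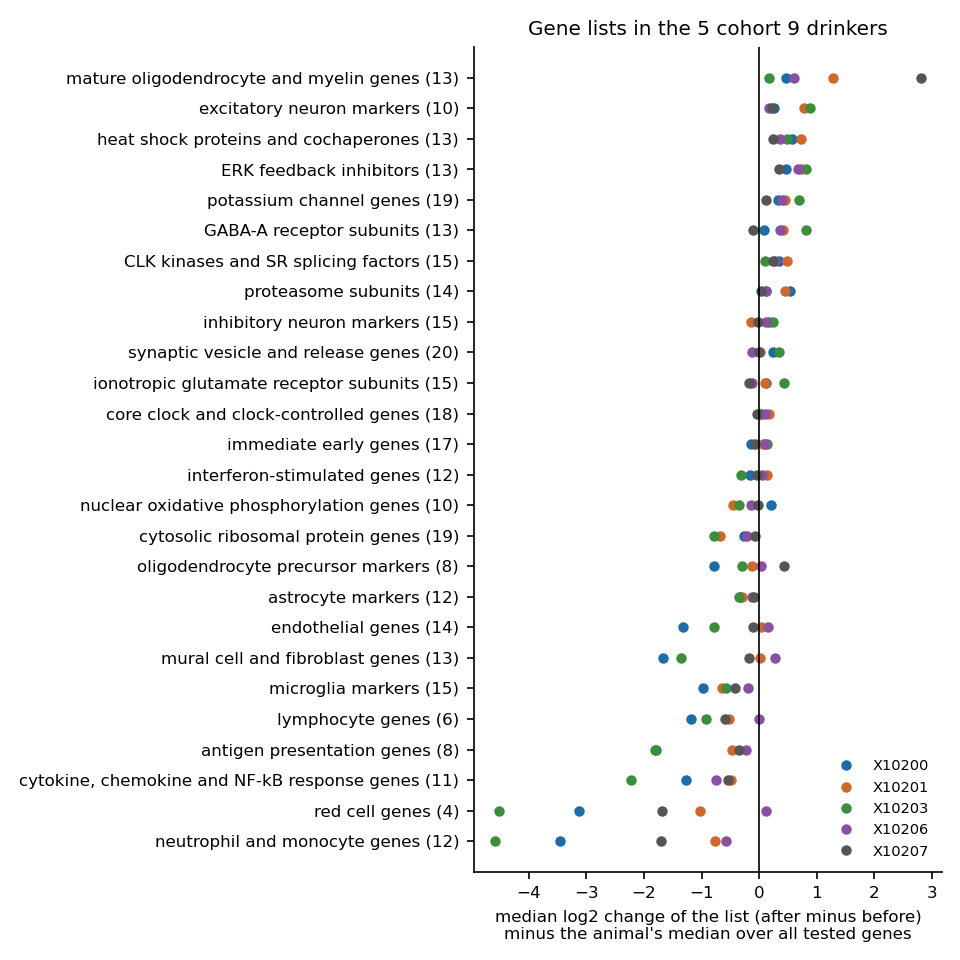
Each point is the median log2 change, after minus before, of a gene list in 1 of the 5 drinkers, minus that animal's median over all 15324 tested genes. The number of genes tested per list stands in brackets. The neutrophil and monocyte list lies below 0 in all 5 animals, farthest in X10203 and X10200, and the red cell list in all but X10206. The oligodendrocyte list lies above 0 in all 5, farthest in X10207.

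Genes of neutrophils and monocytes had the lowest list median of the 37 gene lists. Of 12 tested 10 were lower, with a median log2 change of -2.15 against 0.21 over all genes. S100A8, a calcium-binding protein abundant in neutrophils and monocytes, measured 57.5, 6.27, 394, 9.54 and 34.1 TPM before, in the order X10200, X10201, X10203, X10206 and X10207, and 0.134, 2.78, 1.15, 1.46 and 1.70 after. All 5 after libraries were below all before libraries. Its log2 change was -3.99 ± 0.64 (SE, n = 5 pairs, limma-trend adjusted p = 0.00771), and it was called in each of the 5 fits that left out 1 animal. Its partner S100A9 fell from 155, 23.6, 778, 18.5 and 76.3 TPM to 1.28, 7.40, 1.64, 4.66 and 3.44, a log2 change of -4.35 ± 0.73 (adjusted p = 0.00802). X10203 stood highest before for both genes, and X10201 and X10206 lowest or nearly so. CSF3R, the receptor for granulocyte colony-stimulating factor, fell by 2.88, the pattern recognition gene FCN1 by 2.22 and the myeloid nuclear antigen MNDA by 2.09 on the log2 scale, each in 5 of 5 pairs. The summed level of the 15 list genes in the table was 431 TPM in X10200, 69.3 in X10201, 1644 in X10203, 66.8 in X10206 and 214 in X10207 before. After, it was 17.6, 53.1, 24.5, 50.0 and 35.5. The before libraries of X10201 and X10206 lay little above their after libraries, and those of X10203 and X10200 far above. Without X10203 2 of the 12 genes were called lower, and without X10200, X10201, X10206 and X10207 6, 8, 10 and 9. The composition covariates left none called, with the list median at -2.29.

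**Figure D2:**
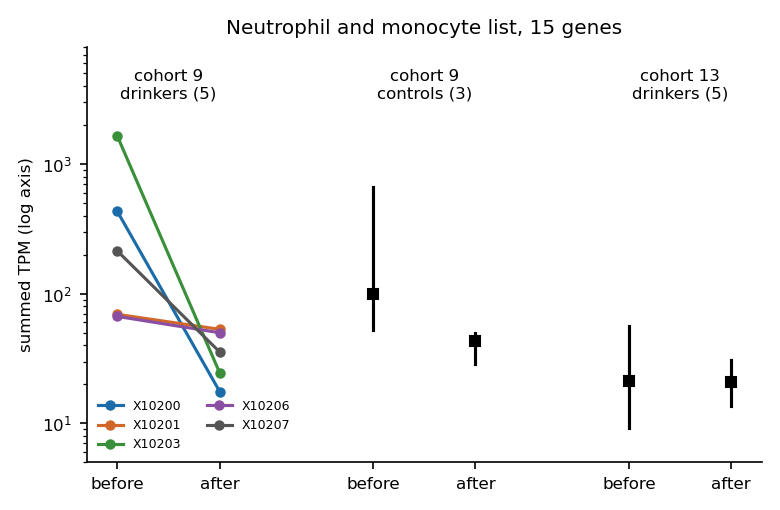
Summed TPM of 15 neutrophil and monocyte genes (log axis) before and after. Coloured lines are the 5 cohort 9 drinkers, black squares and bars the median and range of the 3 cohort 9 controls and the 5 cohort 13 drinkers. Drinkers of cohort 9 start between 66.8 and 1644 TPM and end between 17.6 and 53.1, and cohort 13 drinkers start between 9.22 and 56.8.

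Other blood markers moved with the leukocyte genes in part. HBB, the beta chain of haemoglobin, was at 12565, 1971, 19784, 441 and 2792 TPM before and 388, 797, 179, 769 and 170 after. Its log2 change of -3.27 ± 1.15 did not pass the limma-trend test as deposited (adjusted p = 0.0534) and passed after median scaling (adjusted p = 0.0472), and X10206 went the other way. ALAS2, which starts haem synthesis in red cell precursors, measured 16.4, 2.35, 34.1, 0.627 and 3.44 TPM before and 0.223, 0.662, 0.705, 1.46 and 0.397 after, and CA1, a red cell carbonic anhydrase, was lower in 5 of 5 pairs. Both were called lower, as 2 of 4 tested red cell genes, and without X10200 or X10203 none of the 4 was. Of 6 tested lymphocyte genes 2 fell, GZMB and GNLY, which encode granule proteins of cytotoxic cells, by 1.09 and 0.40 on the log2 scale. GNLY was called in none of the fits that left out an animal, and without X10200, X10201 or X10203 no lymphocyte gene was. In the 3 controls of cohort 9, HBB ran from 674 to 10023 TPM before and from 1854 to 8420 after, while their S100A8 ran from 4.16 to 128 before and from 0.304 to 5.31 after. The part that blood in the samples has in any result here was not tested beyond the fit that takes the leukocyte level as a covariate. In that fit, added after the data were seen, 265 genes rose and 24 fell. The leukocyte level is the mean log2(TPM + 1) of the 12 tested neutrophil and monocyte genes in each library. Genes of that list, such as S100A8 and MNDA, are thus part of their own covariate.

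Inflammatory signals fell as well. Among 11 tested cytokine, chemokine and NF-kB response genes 6 were lower, with a list median of -0.77, namely TNF, CCL3, CCL2, CXCL8, IL1B and IL1RN. TNF, the cytokine tumour necrosis factor, measured 2.32, 3.17, 4.81, 4.08 and 4.05 TPM before and 0.158, 0.292, 0.226, 0.644 and 0.300 after. The groups did not overlap, and unlike S100A8 the 5 before libraries stood close together. Its log2 change was -1.81 ± 0.25 (limma-trend adjusted p = 0.0037). With the leukocyte level as a covariate, TNF was at -1.42 and was not called (limma-trend adjusted p = 0.0505). CCL3, a chemokine made by activated microglia and macrophages, went from 3.89, 5.18, 17.0, 10.7 and 10.5 TPM to 1.28, 0.146, 0.564, 0.893 and 0.874, a fall of 2.46 ± 0.40 (adjusted p = 0.00771). The monocyte attractant CCL2 fell by 1.91 and the neutrophil attractant CXCL8 by 1.54. TNF and CCL3 were called in each fit that left out an animal, CXCL8 in 4 and CCL2 in 3 of them, and the list kept 2 calls without X10203 and 3 without X10201. SOCS3, a feedback inhibitor of cytokine signalling, fell by 1.49 ± 0.29 (adjusted p = 0.0111) and ZFP36, which speeds the decay of cytokine messages, by 1.74 ± 0.49 (adjusted p = 0.0301). ZFP36 was called in 1 of the 5 fits that left out an animal. It was at -0.50 with the leukocyte covariate (limma-trend adjusted p = 0.64). Of 8 antigen presentation genes, 3 fell: the MHC class I regulator NLRC5 by 0.98 and the immunoproteasome subunits PSMB8 and PSMB9 by 0.93 and 0.89. None of these 3 was called without X10200 or without X10203, and with the leukocyte level as a covariate PSMB8 was at 0.15 and NLRC5 at -0.13.

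Microglial markers fell less. Of 15 tested, 4 were lower and none higher, with a list median of -0.28, and 9 were lower after median scaling. TYROBP, the signalling adaptor of microglial receptors, went from 38.7, 21.0, 38.4, 19.5 and 23.1 TPM to 15, 13.2, 10.1, 15.4 and 15.3, all after libraries below all before libraries. LAPTM5 and ITGAM fell by 0.82 and 1.01 and the purinergic receptor P2RY13 by 0.80. TYROBP, LAPTM5 and ITGAM are also expressed by blood myeloid cells. With the leukocyte level as a covariate none of these 4 was called, and the estimates were -0.23 for TYROBP, -0.13 for LAPTM5, 0.20 for ITGAM and 0.27 for P2RY13, the last 2 with the direction turned. AIF1, the marker also called IBA1, had a log2 change of -0.28 ± 0.19 (adjusted p = 0.278). The list lost every call without X10200, X10201 or X10203. The summed level of the microglial list was 251 to 365 TPM before and 177 to 286 after. Single genes outside the lists fell as well. The lysosomal thiol reductase IFI30 fell by 1.62, the apolipoprotein APOC1 by 1.18, the actin regulator ARPC1B by 1.08 and complement properdin, CFP, by 1.38. With the leukocyte covariate these 4 were not called, at -0.11 for IFI30, -1.26 for APOC1, 0.11 for ARPC1B and -0.69 for CFP. SDS, serine dehydratase, kept its call with that covariate (-1.20, limma-trend adjusted p = 0.0174) and went from 29.7, 42.7, 34.1, 30.7 and 27.4 TPM to 17.8, 12.9, 18.0, 14.6 and 14.8 (log2 change -1.02 ± 0.15, limma-trend adjusted p = 0.00458).

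**Figure D3:**
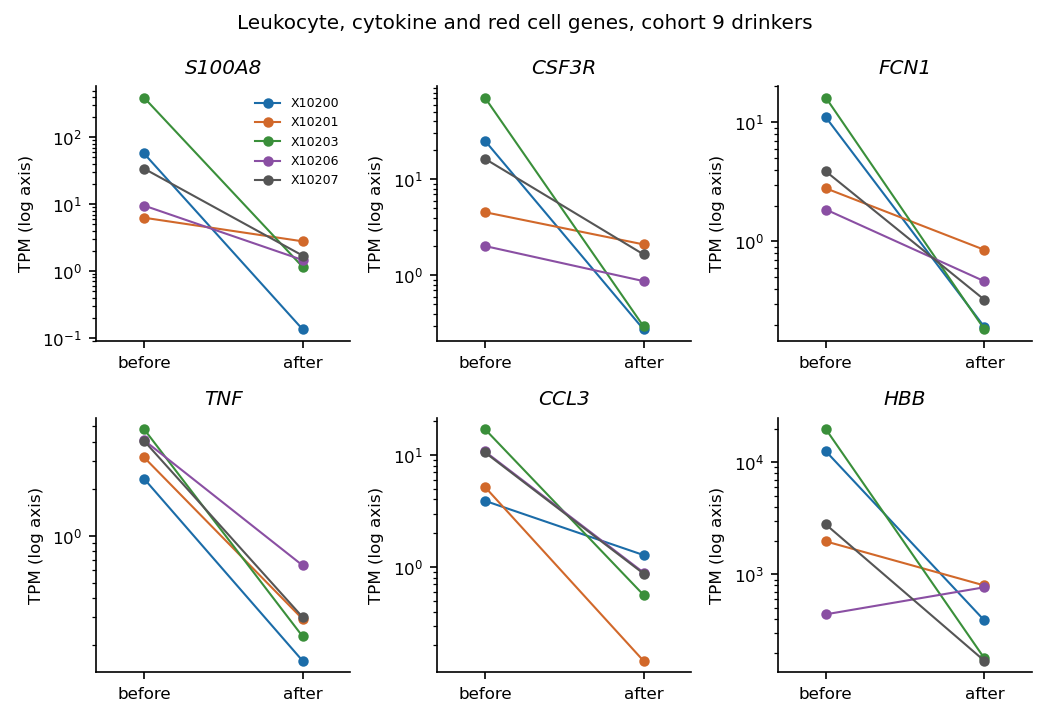
TPM (log axes) before and after in the 5 cohort 9 drinkers, 1 line per animal, for the leukocyte genes S100A8, CSF3R and FCN1, the cytokines TNF and CCL3, and HBB of red cells. The leukocyte genes and HBB spread widely before, with X10203 highest, whereas the before values of TNF lie between 2.32 and 4.81. HBB is higher after in X10206.

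Few vessel-related genes were called, and the animals differed. Among 14 endothelial genes the lipid transporter MFSD2A, found at the blood-brain barrier, fell by 0.62 ± 0.17 (limma-trend adjusted p = 0.0294), and among 13 genes of mural cells and fibroblasts the contractile gene TAGLN fell by 0.88, an estimate of 0.027 with the leukocyte covariate. Without X10200, X10201, X10203 or X10206 no gene of either list was called. Median list changes ranged from -1.15 in X10200 to 0.34 in X10201 for endothelial genes. For genes of mural cells and fibroblasts they were -1.49 in X10200, -1.01 in X10203, -0.039 in X10207, 0.33 in X10201 and 0.37 in X10206. The apoptosis list gave BBC3, a mediator of cell death also called PUMA, which went from 5.19, 7.87, 6.76, 5.68 and 5.13 TPM to 3.38, 1.94, 3.24, 2.11 and 2.95 (log2 change -0.94 ± 0.16, adjusted p = 0.00802). PMAIP1, another promoter of cell death, fell by 0.94, and BCL2, which opposes it, rose by 0.61. The other 9 of 12 genes did not pass as deposited, and BAD, which promotes cell death, fell after median scaling. BBC3 was called in each fit that left out an animal, and was the only fall of its list without X10200, X10201, X10203 or X10207. BCL2 was not called without X10201, X10203 or X10206.

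Feedback inhibitors of the ERK pathway, the kinase cascade that growth factor receptors and synaptic activity switch on, held the rise with the smallest p. Of 13 tested members 7 rose and none fell, with a median of 0.64, and 5 were called after median scaling. DUSP4, a phosphatase that inactivates MAP kinases, stood at 1.59, 1.08, 2.12, 1.70 and 2.01 TPM before and at 9.64, 12.1, 13.8, 11.3 and 9.48 after. No other tested gene had a smaller p, and its log2 change was 2.19 ± 0.21 (SE, n = 5 pairs, limma-trend adjusted p = 4.58e-05). DUSP6, which acts on ERK itself, rose from 8.06, 3.10, 10.5, 8.97 and 14.5 TPM to 23.1, 26.4, 43.3, 39.6 and 25.9 (1.78 ± 0.33, adjusted p = 0.00932). The receptor tyrosine kinase antagonists SPRY4 and SPRY2 rose by 1.51 ± 0.22 (adjusted p = 0.00458) and 1.2 ± 0.21 (adjusted p = 0.00802). In these 4 genes every after library was above every before library. Leaving out X10200, X10201, X10203, X10206 and X10207 in turn left 4, 3, 2, 5 and 7 of the 13 called, DUSP4 and SPRY4 always among them. DUSP4 was the gene that kept its call with composition covariates, at 1.70.

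Immediate early genes, which neurons switch on within minutes of activity, did not rise as a group. Of 17 tested, NR4A3, KLF10 and NR4A2 rose, by 1.05 ± 0.21, 0.88 ± 0.20 and 1.13 ± 0.31 (limma-trend adjusted p of 0.0125, 0.0186 and 0.0289), and JUND fell after median scaling. The 3 rises were a share near the 14.8% over all genes. FOS, the best-known member, stood at 32, 12, 84.2, 57.1 and 57.5 TPM before and 23.0, 28.6, 71.6, 40 and 31.7 after, lower in 4 of 5 animals (log2 change -0.17 ± 0.48, adjusted p = 0.825). None of the 3 rises was called without X10201 or without X10203. The estimate for NR4A2 was -0.020 with composition covariates.

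Among 18 clock genes PER2, BHLHE40, NR1D2 and ARNTL rose and CIART fell as deposited. Over all genes tested 14.8% rose and 2.96% fell as deposited, and 7.11% rose and 11.6% fell after median scaling. After median scaling ARNTL was not called, and NPAS2, DBP and TEF fell as well. PER2, a core repressor of the circadian loop, rose from 5.66, 5.47, 6.02, 6.24 and 7.43 TPM to 13.1, 14.4, 16.5, 13.3 and 13.5, with tight groups that did not overlap (log2 change 1.08 ± 0.16, limma-trend adjusted p = 0.00426). BHLHE40, a transcriptional repressor tied to the clock, rose from between 35.4 and 54.2 TPM to between 97.4 and 119 (1.33 ± 0.22, adjusted p = 0.00802), and the nuclear receptor NR1D2 by 0.84. CIART, a clock repressor, fell from 16.2, 11, 17.1, 12.7 and 18.7 TPM to 10.6, 5.46, 10.1, 7.09 and 9.64 (-0.76 ± 0.20, adjusted p = 0.0242). PER2 and BHLHE40 were called in each fit that left out an animal, and they were the 2 calls of the list without X10200, X10201, X10203 or X10206. The sources used here do not give the hour of each biopsy, so its part was not tested.

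CLK kinases, which phosphorylate splicing factors, rose with part of the splicing list, where 7 of 15 genes rose and none fell. CLK1 went from 40.9, 37.3, 60.9, 44.5 and 43.4 TPM to 118, 148, 148, 133 and 134 (1.58 ± 0.20, limma-trend adjusted p = 0.002), and CLK4 rose by 1.04 ± 0.18 (adjusted p = 0.00802). These 2 were called in every fit that left out an animal. The serine and arginine-rich factors SRSF1 and TRA2A rose by 0.66 each as deposited, and TRA2A was not called after median scaling, where the list kept 3 calls. Of 13 heat shock proteins and cochaperones, which fold proteins, 10 rose and 8 did after scaling. HSPA4L rose from 6.14, 6.66, 5.53, 10.2 and 7.12 TPM to 11.6, 28.0, 19.2, 25.3 and 12.9 (1.27 ± 0.23, adjusted p = 0.00932), and HSPH1, DNAJA1 and HSPA8 by 0.94, 0.91 and 0.75. Without X10201 or X10203 none of the 13 was called, and without X10200 only 1. Of 14 proteasome genes 4 rose as deposited, PSMD12 by 0.84 and PSMC2 by 0.56 among them, and PSMD12 alone did after scaling. None of the 14 was called without X10200, X10201 or X10203, or in limma-voom.

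**Figure D4:**
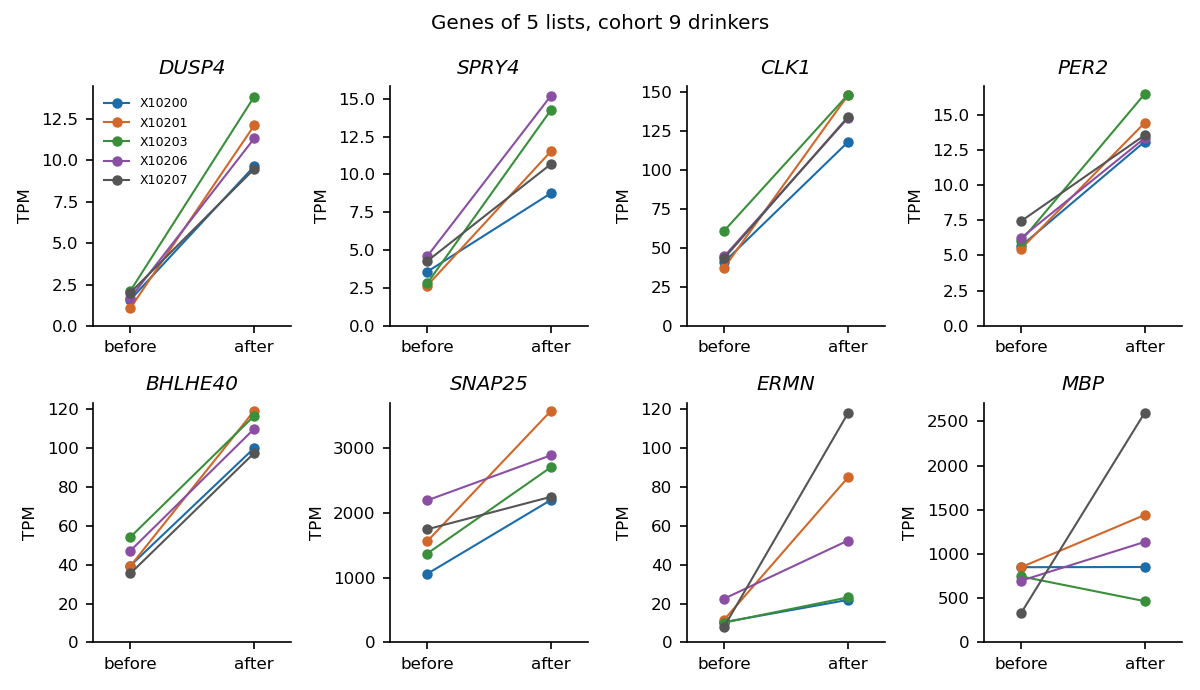
TPM before and after in the 5 cohort 9 drinkers, 1 line per animal, axes from 0. DUSP4, SPRY4, CLK1, PER2, BHLHE40 and SNAP25 are higher after in every animal, the first 5 without much spread. ERMN and MBP of myelin are highest after in X10207, and MBP is lower after in X10203.

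Single genes of the glucocorticoid and stress peptide lists were called. NR3C1, the glucocorticoid receptor, rose by 0.95 ± 0.21 (limma-trend adjusted p = 0.0181) and was the 1 gene called of 12 in its list, the others being mostly its targets, and after scaling NFKBIA fell too. Of 9 stress peptide genes 4 rose and 1 fell, with a list median of 0.066 against 0.21 over all genes, and after scaling 2 rose and 2 fell. CRH, which encodes corticotropin-releasing hormone, rose from 21.3, 22.3, 17.2, 29.5 and 27.4 TPM to 39.6, 54.8, 27.6, 39.2 and 34.2 (0.70 ± 0.16, adjusted p = 0.0181) but was not called after scaling. Its binding protein CRHBP rose by 0.74 and the peptide NPY, which in cortex marks a class of inhibitory neurons, by 1.06 ± 0.25 (adjusted p = 0.0198). AVP was called lower at -0.49 although it was lower in only 3 of 5 animals. Without X10200, X10201 or X10203 none of the 9 was called. The neuropeptide list added SCG2, a secretory granule protein, at 0.89, NPPC at 0.69 and TAC1 at 0.75, the last not called after scaling. None of its 13 genes was called without X10200, X10201 or X10203, and limma-voom called 1. PCSK1, which cleaves prohormones, was among the largest rises, from 9.09, 19.9, 15.8, 30.5 and 29.1 TPM to 37.1, 126, 95.9, 87.1 and 63.4 (1.93 ± 0.35, adjusted p = 0.00932).

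Markers of excitatory neurons rose in some members and not in SLC17A7. Of 10 tested, 5 rose, among them RORB, the transcription factors NEUROD6 and FEZF2 by 1.42 and 1.04, and the vesicular glutamate transporter SLC17A6 by 1.0. SLC17A7, the main cortical glutamate transporter, measured 531, 717, 601, 771 and 639 TPM before and 562, 555, 790, 609 and 602 after (-0.06 ± 0.17, limma-trend adjusted p = 0.817). The summed level of the excitatory list was 1857, 2145, 1741, 2264 and 1907 TPM before and 1694, 1555, 1973, 1851 and 1591 after, lower in 4 of 5 animals, although the list median of the log2 changes was 0.80. CAMK2A, an abundant kinase of these neurons, fell after scaling. Of 15 inhibitory markers 4 rose as deposited, against 14.8% of all genes tested. These were the GABA-synthesizing enzyme GAD2 by 0.66, LHX6 by 0.60, RELN by 0.77 and DLX1 by 0.47, and DLX1 was not called after scaling. GAD1 was higher in 5 of 5 animals but did not pass (0.42 ± 0.16, adjusted p = 0.0694). Without X10201 or X10203 none of either list was called, and without X10200 or X10206 none of the inhibitory list.

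Genes of synapses and channels changed in both directions relative to the median gene. After scaling, 7.11% of all genes tested rose and 11.6% fell. The scaled falls of the vesicle list and of the sodium and calcium channel list, 2 of 20 and 2 of 14, were shares near the latter. Of 13 GABA-A receptor subunits, the chloride channels that ethanol potentiates, 5 rose as deposited and 2 after scaling. GABRA4 went from 4.66, 4.45, 6.23, 7.84 and 10.7 TPM to 8.21, 19.5, 26.7, 22.7 and 11 (1.2 ± 0.31, limma-trend adjusted p = 0.0247), higher in 5 of 5 animals, and was called on both scales. Of 15 ionotropic glutamate receptor subunits, GRIN2B of the NMDA receptor rose from 1.28, 1.22, 1.52, 0.921 and 3.17 TPM to 2.35, 4.16, 11.6, 8.40 and 6.02 (1.43 ± 0.33, adjusted p = 0.0196). GRIA2 rose by 0.79 as deposited only, and GRIN2C fell by 0.69 ± 0.20 (adjusted p = 0.0317). The 2 rises of this list were a share near the 14.8% over all genes. Of 20 genes of synaptic vesicles and release 8 rose, with 6 rises and falls of STX1A and VAMP2 after scaling. SYT2, a fast calcium sensor of release, rose by 1.40, SYT1 by 0.92 and VAMP1 by 0.80. SNAP25, a core fusion protein, rose from 1060, 1564, 1373, 2196 and 1749 TPM to 2204, 3582, 2710, 2894 and 2251 as deposited (0.80 ± 0.22, adjusted p = 0.0283), and it was not called after scaling. Of 17 postsynaptic scaffold and plasticity genes only DLG1 rose, by 0.71, while DLG4, SHANK1, SHANK3 and DLGAP4 fell after scaling. Of 19 potassium channel genes 5 rose, KCNN2, KCNA4, KCNA1 and KCNJ6 among them at 0.78, 0.91, 1.09 and 0.80, and KCNN1 fell. Of 14 sodium and calcium channel genes SCN3A rose by 0.79 as deposited, with CACNB4, a share near the 14.8% over all genes, and after scaling none rose and CACNA1G and CACNA1H fell. Leaving out X10203 ended every one of these calls, and leaving out X10201 all but 1, in the potassium list.

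Myelin genes rose, and by list median they were higher in every animal, by very different amounts. Of 13 tested oligodendrocyte genes 6 rose and 10 were higher in 5 of 5 pairs, with a list median of 1.14. ERMN, a cytoskeletal protein of myelinating cells, went from 10.4, 11.6, 10.2, 22.5 and 8.06 TPM to 21.9, 84.9, 23.2, 52.4 and 118 (1.95 ± 0.42, limma-trend adjusted p = 0.0156). UGT8, which makes myelin galactolipids, rose by 1.92 and CLDN11, a tight junction protein of the myelin sheath, by 1.44. MBP was higher after in 4 animals and lower in X10203, at 851, 850, 747, 698 and 330 TPM before and 853, 1442, 466, 1137 and 2600 after, and did not pass (0.75 ± 0.41, adjusted p = 0.188). The list's median change was 2.93 in X10207, 1.59 in X10201, 0.70 in X10206, 0.64 in X10200 and 0.52 in X10203. Without X10201 or X10203 none of the list was called, and without X10207 3 of 13 were. The share of white matter in each biopsy was not measured, and its part in the rise was not tested. With the composition covariates, which include the oligodendrocyte level, the list median was -0.10. SLC24A2, a potassium-dependent sodium and calcium exchanger, had the largest rise among called genes at or above the median level and higher in 5 of 5 pairs, from 2.38, 6.38, 5.66, 9.63 and 15 TPM to 6.53, 61.0, 45.7, 42.1 and 52.6 (2.16 ± 0.63, adjusted p = 0.0317), and its estimate was 0.013 with those covariates. B3GALT2, a galactosyltransferase, rose by 1.75, and SPP1, the secreted protein osteopontin, by 1.51 ± 0.26 (adjusted p = 0.00802), the latter in each fit that left out an animal.

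Several lists gave few calls. None of 12 astrocyte markers, 8 markers of oligodendrocyte precursors, 10 nuclear genes of oxidative phosphorylation and 7 genes of ethanol metabolism was called as deposited, and GFAP had a change of 0.39 ± 0.27 (limma-trend adjusted p = 0.311). After median scaling the astrocyte markers ALDH1L1 and GLUL, the precursor marker CSPG4 and the aldehyde dehydrogenase gene ALDH1A1 were lower. These were 2 of 12, 1 of 8 and 1 of 7 genes, shares near the 11.6% of all genes tested that fell on that scale. Of 11 reactive astrocyte genes SPP1 rose and SOCS3 fell, and MT3, the 1 metallothionein tested, was not called. Of 12 hypoxia genes KDM3A and VEGFA rose, by 0.75 and 0.71, a share near the 14.8% over all genes. PFKFB4 fell after scaling, and none of the 12 was called without X10201 or X10203. Of 15 cholesterol synthesis genes HSD17B7 rose by 0.77 and IDI1 by 0.59, the latter as deposited only, again a share near that of all genes. Of 12 interferon-stimulated genes MX2 and IFI27 fell, the latter by 0.65, and of 19 ribosomal protein genes RPL18 fell by 0.39. A p that misses the threshold does not show that a gene was unchanged.

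For no gene did the change in the drinkers pass a test of its difference from the change in the controls of cohort 9. The change in drinkers minus the change in the 3 controls was tested within the same fit. It passed for 0 of 15324 genes (0%) in limma-trend and in limma-voom on the recovered reads. At an unadjusted limma-trend p below 0.05 there were 115 genes (0.75%). That is a smaller share than this threshold passes on average when no gene differs. DUSP4 changed by 2.41 ± 0.27 in the controls, from between 1.02 and 1.43 TPM to between 9.20 and 12 (adjusted p = 0.000566), and the difference was -0.22 ± 0.34. PER2 changed by 1.57 ± 0.20 in controls, with a difference of -0.49 ± 0.26 (unadjusted p = 0.07). TNF changed by -1.98 ± 0.33 in the controls, a difference of 0.17 ± 0.41, and SDS by -1.30 ± 0.20, a difference of 0.27 ± 0.25. S100A8 had a value of -3.18 ± 0.83 there and a difference of -0.81 ± 1.05, and it was lower in 3 of 3 controls. For S100A9 the error of the difference was 1.19 on the log2 scale, so sizeable differences in leukocyte genes were not detectable with these animals. In controls alone 4 genes (0.0261%) rose and 9 (0.0587%) fell, with 3 pairs instead of 5. The genes farthest toward a difference among those named were the red cell gene ALAS2 at -2.51 ± 0.88 (unadjusted p = 0.0107), the chemokine CXCL8 at 1.35 ± 0.48 (unadjusted p = 0.0112), the larger fall being in controls, and CIART at -0.77 ± 0.32 (unadjusted p = 0.0273). All of these had an adjusted p of 1 in limma-trend.

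**Figure D5:**
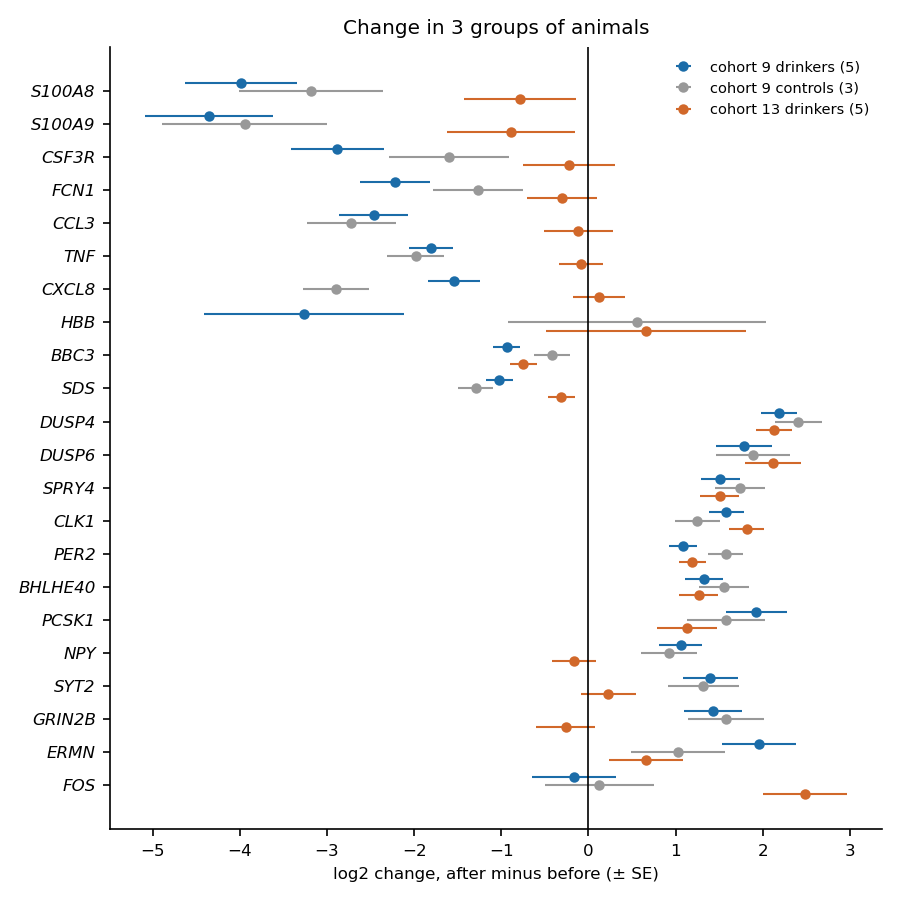
Log2 change, after minus before, of 22 named genes (point, with SE from limma-trend) in the 5 drinkers of cohort 9, the 3 controls of cohort 9 and the 5 drinkers of cohort 13. DUSP4, SPRY4, CLK1, PER2 and BHLHE40 lie above 1 in all 3 groups. S100A8, TNF and CCL3 lie below -1 in both cohort 9 groups and between -1 and 0 in cohort 13 drinkers.

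The drinkers of cohort 13 had values close to those of cohort 9 for DUSP4, SPRY4, CLK1, PER2 and BHLHE40. Their values were smaller for the leukocyte and cytokine falls, but no gene passed the test of the difference (0 of 15324, 0%, in limma-trend and limma-voom). At an unadjusted limma-trend p below 0.05 there were 492 genes (3.21%). This too is a smaller share than the threshold passes on average when no gene differs. DUSP4 changed by 2.13 in cohort 13 drinkers, SPRY4 by 1.5, CLK1 by 1.82, PER2 by 1.19 and BHLHE40 by 1.26, and the 5 differences lay between -0.24 and 0.06. TNF had a change of -0.09 in cohort 13, where it ran from 0.0395 to 1.21 TPM before. At that level log2(TPM + 1) has little room to fall, which limits what the difference can show. The difference was -1.72 ± 0.36 (unadjusted p = 0.000129, adjusted p = 0.605). When the 10 drinker pairs alone entered the fit, 4 differences passed in limma-trend, those of TNF, CCL3, CXCL8 and LOC102118223 (adjusted p = 0.031 for each), all with the larger fall in cohort 9. The neutrophil and monocyte list had a median of -0.11 there, with a summed level of 9.22 to 56.8 TPM before, below that of 5 of 5 cohort 9 drinkers. S100A8 differed by -3.20 ± 0.91 and FCN1 by -1.91 ± 0.57 (unadjusted p of 0.00228 and 0.00337, adjusted p of 1). FOS had a change of 2.48 in cohort 13, a difference of -2.65 ± 0.68 (unadjusted p = 0.00101, adjusted p = 1), and it was already higher before in cohort 9, at 12 to 84.2 TPM against 3.62 to 11.4. The neuronal genes NPY, SYT2 and GRIN2B had changes of -0.17, 0.23 and -0.26 in cohort 13 and differences of 1.22 ± 0.35, 1.17 ± 0.45 and 1.69 ± 0.47 (adjusted p of 1). Cohorts differ in RNA code and depth as well as in animals, and these cannot be told apart. In 2 of the 5 cohort 13 drinkers the RNA code also differs between the before and the after library. With the pairs of a single code alone, 0 differences passed in limma-trend, with TNF at -1.69 ± 0.46 (unadjusted p = 0.00203), S100A8 at -3.52 ± 1.06 (unadjusted p = 0.0047), NPY at 1.68 ± 0.31 (unadjusted p = 7.25e-05) and an adjusted p of 0.478 for each.

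The authors' deposited table lists 567 genes as higher and 675 as lower in drinkers after against before. Of the 566 tested here from the first list, 566 had a positive change in cohort 9 drinkers and 467 were called higher. Of 671 tested from the second, 346 were called lower as deposited and 594 after median scaling, and 2 had a positive change. These lists were chosen on samples that include these 10 libraries, so the counts are a description. The median log2 change of the first list was 0.85 in cohort 9 drinkers and 0.72 in the cohort 9 controls, and that of the second was -0.55 and -0.30.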

How the data were processed

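The labels describe unstranded, poly-A selected single-end libraries from biopsies of area 46. STAR 2.5.2b, HTSeq 0.6.1p1 and DESeq2 are named per the submitters' processing notes, and the sources used here give no build, annotation or settings. The values are TPM computed by the authors, in 1 deposited table of 29958 genes and 32 libraries, per the file headers. The log2 fold changes of drinkers in the authors' deposited table were used only to define their 2 lists. Sample titles gave the time point and animal, and the table header gave the drinker marks.

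The 15324 genes whose TPM averaged 1 or more over all libraries were tested with limma 3.58.1 in R 4.3.3, by limma-trend on log2(TPM + 1) with a change term for each cohort and status and the animal as a block. All 16 pairs shared 1 estimate of the spread, with 12 residual and 6.78 prior degrees of freedom, and a call is a Benjamini-Hochberg adjusted p below 0.05 over all genes. The pairing rests on the animal, and an animal's 2 libraries deviated from their group means with a correlation of 0.18 to 0.46 in these drinkers. TPM values were whole multiples of 1 read for 29437 of the 29437 genes above 0 in at least 2 libraries (100%, within 1e-06), and limma-voom on those reads called 813 genes higher and 1252 lower. The fit was tested on simulated data.

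Genes were named by rule. These are called genes with 1 direction in 5 of 5 pairs and at least the median level, the 10 largest each way, the 3 smallest p each way, up to 4 members per list, and GFAP, MBP, SLC17A7, GAD1, AIF1, FOS, HBB and S100A8. Some genes that the rule names are not reported here. Others named were chosen after their values were seen. The members and the 37 gene lists were chosen with earlier results of these data known. Alternatives were median scaling, other filters and pseudocounts, covariates, narrower fits, no block, robust variances and leaving out animals. Figures used matplotlib 3.10.9. Second biopsies of 6 further animals were not analysed here.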

Additional observations from a re-analysis of the deposited data

Results flagged for a closer look

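For each of 102 named genes the 5 before and the 5 after libraries were examined for 1 library whose gap to its neighbour took up more than 0.71 of the group's range. Of 204 such groups 19 held one. Chance flags about 1 in 20 groups, and genes of 1 cell type are not independent. X10203 stood highest before for S100A8 at 394 TPM, S100A9 at 778, CFP at 18.8, P2RY13 at 17.3, CA1 at 18.9 and KLF10 at 11.7. For S100A8 the next library was at 57.5 TPM and for CA1 at 3.20. After, X10203 was highest for KLF10 at 22.3 TPM and SLC17A7 at 790. X10206 stood highest before for 3 myelin genes, ERMN at 22.5 TPM, UGT8 at 8.04 and CLDN11 at 24.4, where the next library of ERMN was at 11.6, and after for GRIN2C at 8.41. X10201 was highest after for SLC17A6 at 14.4 TPM and VAMP1 at 67.3, and lowest before for BCL2 at 3.20. X10207 was highest after for GFAP at 981 TPM and PSMB8 at 2.53 and before for GRIN2B at 3.17. X10200 was highest before for IFI27 at 52.9 TPM. The causes were not tested.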

How the results depend on the processing

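As reported, 2263 genes rose and 453 fell. The counts were 1090 and 1772 after median scaling, 246 and 131 without the replicate block that keeps the 2 libraries of an animal paired, 673 and 327 with the mitochondrial percent as a covariate, 813 and 1252 with limma-voom, and 1172 and 558 without a filter on low values. TPM without mitochondrially encoded genes gave 2329 rises and 909 falls, and a mean TPM of at least 5, with fewer genes tested, gave 1604 and 178. The composition covariates left 1 and 0, and the leukocyte level as a covariate 265 and 24. Only the 5 pairs in the fit gave 5113 and 866, only the 8 pairs of cohort 9 gave 4865 and 828, and, added after the data were seen, only pairs of a single RNA code gave 3963 and 708 and only the 10 drinker pairs 747 and 239. Leaving out 1 drinker gave 17 to 2061 rises and 16 to 397 falls, and with median scaling as well the pairs of counts were 531 and 970 without X10200, 137 and 382 without X10201, 299 and 667 without X10203, 497 and 992 without X10206, and 1242 and 1864 without X10207. Without X10200 and X10203 together 5 rose and 9 fell. Genes higher in 5 of 5 pairs numbered 5558 as deposited and 2480 scaled, and lower ones 980 and 3282. The difference from cohort 9 controls stayed at 0 calls in every fit run. That from cohort 13 drinkers had 1 call without a filter, LOC107127935, and 4 with the 10 drinker pairs alone.

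Among named genes, estimates crossed 0 with the leukocyte covariate for MNDA (0.21), ARPC1B (0.11), PSMB8 (0.15), ITGAM (0.20), P2RY13 (0.27), AIF1 (0.12), HBB (0.23), ALAS2 (0.089), GZMB (0.12), TAGLN (0.027) and FOS (0.90). MNDA is itself among the genes that make up this covariate. With composition covariates NR4A2 reached -0.020 and MBP -0.14. Leaving out 1 drinker took SLC17A7 from -0.18 to 0.013 and GFAP from -0.087 to 0.52. Beyond the values' own construction, the causes were not tested. Genes near 1 TPM rest on few reads, such as 4 to 99 for TNF.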
